A study of Mus musculus with 12 samples.

Results

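The genes described here are Ldha, Ldhb, Slc16a1 and Slc16a3, which encode the 2 main subunits of lactate dehydrogenase and the lactate transporters MCT1 and MCT4. They were chosen by name among the 55487 genes of the count table, and all 4 passed the filter on low counts that left 16808 genes for testing. RNA was sequenced in 12 libraries of Min6, an insulin-secreting mouse beta cell line, with 3 libraries in each of 4 groups. Treatment lasted 48 h. FoxOi_Loperamide cells received 1 µM AS1842856, an inhibitor of the transcription factor FoxO1, together with 5 µM loperamide, an opioid receptor agonist. FoxOi cells received the inhibitor alone, Loperamide cells received loperamide alone, and DMSO cells received the solvent. The comparisons ask what each compound does to these genes alone and whether loperamide changes the response to the inhibitor. The labels do not say whether libraries of a group came from separate cultures, so p-values measure the spread between these libraries, which may be technical.

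Lactate dehydrogenase interconverts pyruvate and lactate while oxidising or regenerating NADH. Its active form is a tetramer of A and B subunits. The A subunit, from Ldha, favours lactate production in glycolytic tissues, and the B subunit, from Ldhb, predominates in oxidative tissues. Monocarboxylate transporters carry lactate and pyruvate together with a proton across the plasma membrane. MCT1, from Slc16a1, serves uptake and release, whereas MCT4, from Slc16a3, is known for lactate export from glycolytic cells. Ldha and Slc16a1 belong to the disallowed genes, which normal beta cells keep at very low levels. Pyruvate then enters the mitochondria, and circulating lactate and pyruvate do not trigger insulin release.

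Depth ran between 10640485 and 19499216 counts per library. Levels are given as CPM, counts scaled to the TMM-adjusted library size, or as the authors' FPKM where 2 genes are compared, since FPKM is scaled to gene length. All 8 beta cell markers were detected in every group, with a summed level of 26779 to 31575 CPM in FoxOi_Loperamide libraries, 34623 to 39430.5 CPM in FoxOi, 62698 to 63115.5 CPM in Loperamide and 61035 to 84669 CPM in DMSO. Of the 8, 6 fell and 0 rose with the inhibitor at an adjusted p under 0.05. Of all genes tested, 20.3% fell and 20.7% rose at that threshold. In FoxOi_Loperamide against FoxOi, 3 of the 8 rose and 2 fell, where 11.5% of all genes rose and 15.1% fell. With loperamide alone, 3 fell and 0 rose, where 15.8% of all genes fell and 16.1% rose. In bulk RNA, fewer cells of a type and less RNA per cell cannot be told apart. The 6 alpha cell markers summed to 871 to 1193 CPM in FoxOi_Loperamide, 1825 to 2455 CPM in FoxOi, 410 to 736 CPM in Loperamide and 2630 to 3848 CPM in DMSO. Its members did not move together. Gcg averaged 586 CPM in FoxOi_Loperamide, 1084 in FoxOi, 121 in Loperamide and 717 in DMSO. Ttr averaged 429, 1092, 405 and 2520 CPM in the same order. Of the 4 members tested, 1 rose and 2 fell with the inhibitor, where 20.7% of all genes rose and 20.3% fell. The summed level of 7 acinar markers was at most 0.373 CPM in any library, that of 4 endothelial markers at most 1.68 CPM and that of 6 fibroblast markers at most 4.31 CPM. The sum of 6 macrophage and leukocyte markers was 7.31 to 7.67 CPM in FoxOi_Loperamide, 21.6 to 22.9 CPM in FoxOi, 4.26 to 4.67 CPM in Loperamide and 4.55 to 6.07 CPM in DMSO, and so was highest where Ldha was highest. Its largest member was Cd68, a lysosomal protein, while the defining leukocyte genes Ptprc and Adgre1 averaged 0.04 and 0.02 CPM in FoxOi libraries. Csf1r on the same list averaged 0.0752 CPM in FoxOi_Loperamide, 1.12 in FoxOi, 0.306 in Loperamide and 0.576 in DMSO. Of the 3 members tested, 1 rose in FoxOi against DMSO, and 2 fell in FoxOi_Loperamide against FoxOi. Over all genes tested, 20.7% rose in the first comparison and 15.1% fell in the second. The 5 ductal markers summed to 117.8 to 170.2 CPM in FoxOi_Loperamide, 314 to 366 CPM in FoxOi, 166 to 226 CPM in Loperamide and 254 to 344 CPM in DMSO, and Krt19, Sox9 and Cftr among them averaged at most 0.17 CPM in any group. The secreted protein gene Spp1, also on that list, averaged 1.07 CPM in FoxOi_Loperamide, 202 in FoxOi, 0.719 in Loperamide and 6.55 in DMSO, and so was also highest where Ldha was highest. The keratin gene Krt7 averaged 139 CPM in FoxOi_Loperamide, 139 in FoxOi, 195 in Loperamide and 294 in DMSO, and was lower in FoxOi than in DMSO (-1.08 ± 0.16, edgeR adjusted p = 0.000112). The part of these markers in the results was not tested.

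The promoters are shown because 4 genes that rose together with the inhibitor can then be read side by side. Each runs from 250 bases before to 50 bases after the start that RefSeq annotates on GRCm38.p6, in the direction of the gene, and capitals mark ACGTG on either strand, a core of the sites that hypoxia-inducible factors bind, which is also contained in CACGTG, an E-box that MYC binds. Ldha (ENSMUSG00000063229, chromosome 7, 46841475 to 46855627, plus strand) is shown at chr7:46845554-46845853, Ldhb (ENSMUSG00000030246, chromosome 6, 142490249 to 142507957, minus strand) at chr6:142507908-142508207, Slc16a1 (ENSMUSG00000032902, chromosome 3, 104638668 to 104658462, plus strand) at chr3:104638414-104638713 and Slc16a3 (ENSMUSG00000025161, chromosome 11, 120948480 to 120960868, plus strand) at chr11:120948817-120949116. All are protein-coding genes.
Ldha: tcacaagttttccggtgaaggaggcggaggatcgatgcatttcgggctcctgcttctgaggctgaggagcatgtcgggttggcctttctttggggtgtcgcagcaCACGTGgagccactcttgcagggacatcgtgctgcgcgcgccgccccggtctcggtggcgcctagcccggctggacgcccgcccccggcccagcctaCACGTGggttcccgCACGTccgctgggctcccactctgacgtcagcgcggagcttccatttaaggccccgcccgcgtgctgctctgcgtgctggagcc
Ldhb: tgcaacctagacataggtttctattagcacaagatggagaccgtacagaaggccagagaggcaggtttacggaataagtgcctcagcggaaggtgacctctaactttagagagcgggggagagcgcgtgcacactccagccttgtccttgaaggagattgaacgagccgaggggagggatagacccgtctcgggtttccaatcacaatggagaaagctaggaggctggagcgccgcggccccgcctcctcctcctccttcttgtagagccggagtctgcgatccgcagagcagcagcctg
Slc16a1: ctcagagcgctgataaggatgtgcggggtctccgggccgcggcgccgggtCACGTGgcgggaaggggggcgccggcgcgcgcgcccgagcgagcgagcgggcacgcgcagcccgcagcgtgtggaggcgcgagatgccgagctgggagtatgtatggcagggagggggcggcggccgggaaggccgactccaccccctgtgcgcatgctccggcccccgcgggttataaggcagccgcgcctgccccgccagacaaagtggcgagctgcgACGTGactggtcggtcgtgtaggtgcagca
Slc16a3: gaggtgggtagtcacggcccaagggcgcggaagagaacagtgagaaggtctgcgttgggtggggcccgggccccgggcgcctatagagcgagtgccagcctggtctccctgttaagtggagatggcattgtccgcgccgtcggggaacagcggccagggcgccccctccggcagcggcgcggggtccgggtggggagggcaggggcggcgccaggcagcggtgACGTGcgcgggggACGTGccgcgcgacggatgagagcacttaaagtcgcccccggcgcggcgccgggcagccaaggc

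The Ldha window held 5 matches to ACGTG counted over both strands. They included 2 E-boxes, which begin 145 and 48 bases before the start and count on each strand. The Slc16a1 window held 3 matches, of which 2 are the strands of 1 E-box, the Slc16a3 window held 2, and the Ldhb window held 0. Over 32544 mouse promoter windows of the same length, 19.7% held ACGTG, 7.17% held CACGTG and 0.599% held CACGTG at least 2 times. The Ldha window also held TGACGTCA, the site of CREB factors, which occurred in 1.8% of windows. None of the 4 windows held GTAAACA, a FoxO and forkhead motif present in 3.66% of windows, or the AP-1 motif TGANTCA, present in 7.79%. A second annotated start of Ldha, with a window at chr7:46846832-46847131, held 0 matches to ACGTG. The other form of the hypoxia-inducible factor core, GCGTG, occurred 2 times in each Ldha window, 1 time in the Ldhb window, 2 times in the Slc16a1 window and 0 times in the Slc16a3 window, and in 32.6% of all windows. The GC content of the windows was 67.3% for Ldha, 57.3% for Ldhb, 73.7% for Slc16a1 and 73.3% for Slc16a3, against a median of 53.0% over all windows. A match in these letters is not a bound site.

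With the inhibitor alone, all 4 genes rose, and Ldha rose most. Ldha was 17.5-fold higher in FoxOi than in DMSO libraries, Slc16a1 4.02-fold, Ldhb 3.34-fold and Slc16a3 2.17-fold. Of all genes tested, 40.9% were called in this comparison, 20.7% higher and 20.3% lower, so a call by itself is common here. The median log2 fold change of all tested genes was 0.01. When loperamide was present with the inhibitor, Ldha and Slc16a3 were back near or below the DMSO level, Ldhb was partly lower, and Slc16a1 stayed high.

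**Figure D1:**
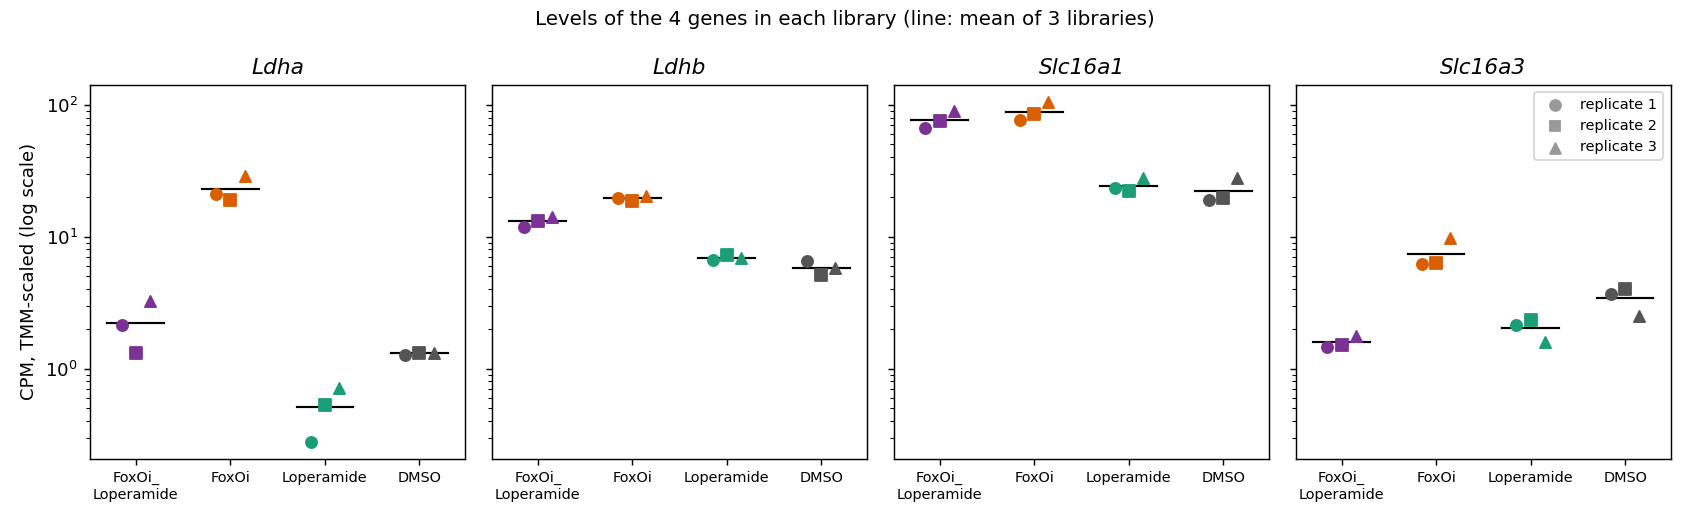
CPM of Ldha, Ldhb, Slc16a1 and Slc16a3 on a log axis in FoxOi_Loperamide, FoxOi, Loperamide and DMSO libraries; each point is a library, its shape gives the replicate number and the line is the mean of 3. FoxOi libraries lie above all others for Ldha (18.9 CPM or more) and Slc16a3 (6.16 CPM or more), whereas FoxOi_Loperamide and FoxOi overlap for Slc16a1.

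Ldha had 2.12, 1.31 and 3.23 CPM in FoxOi_Loperamide libraries, 21.1, 18.9 and 28.7 CPM in FoxOi, 0.280, 0.532 and 0.719 CPM in Loperamide, and 1.28, 1.31 and 1.32 CPM in DMSO. The FoxOi libraries do not overlap with any other group, and the Loperamide libraries are all below DMSO. Low counts stand behind the small values, with 3, 7 and 10 counts in the Loperamide libraries and 20, 21 and 18 in DMSO, against 363, 344 and 560 in FoxOi. The log2 fold change was 4.13 ± 0.27 for FoxOi over DMSO (SE, n = 3 each, edgeR quasi-likelihood test, Benjamini-Hochberg adjusted p = 3.45e-08).

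In the presence of the inhibitor, loperamide took away most of this difference. Ldha fell 10.3-fold in FoxOi_Loperamide against FoxOi (log2 fold change -3.36 ± 0.25, edgeR adjusted p = 1.62e-07). The ratio of libraries with the same replicate number was 0.101, 0.0695 and 0.113. Of all genes tested, 26.6% were called in this comparison, 15.1% lower and 11.5% higher. FoxOi_Loperamide was not called different from DMSO (0.77 ± 0.32, edgeR adjusted p = 0.0665). That comparison was called with the replicate number as a block (0.74, edgeR adjusted p = 0.00933) and without FoxOi_Loperamide replicate 2, whose 1.31 CPM lies within the DMSO range (1.03, edgeR adjusted p = 0.0146). FoxOi_Loperamide was 4.17-fold higher than Loperamide (2.06 ± 0.41, edgeR adjusted p = 0.00103).

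Loperamide alone went with a fall of Ldha to 0.510 ± 0.220 CPM in Loperamide libraries, against 1.30 ± 0.0215 CPM in DMSO libraries (SD, n = 3 each). The log2 fold change was -1.29 ± 0.45 (edgeR adjusted p = 0.0404), in a comparison where 31.9% of genes were called, 15.8% lower and 16.1% higher. It rests on few counts. The call was lost without DMSO replicate 1 (-1.33, edgeR adjusted p = 0.0636), DMSO replicate 2 (-1.30, 0.0784), DMSO replicate 3 (-1.30, 0.0647), Loperamide replicate 1 (-1.04, 0.133) or Loperamide replicate 2 (-1.30, 0.0945). Ordered by mean level, Ldha was highest in FoxOi, then FoxOi_Loperamide, then DMSO, and lowest in Loperamide. FoxOi_Loperamide and DMSO were called different with the replicate block (0.74, edgeR adjusted p = 0.00933) but not without it.

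Part of the Ldha sequence occurs elsewhere in the genome. Of the 50-base stretches of its protein-coding transcripts, the length of the reads, 10.4% occur exactly in 14 other annotated genes, and reads of that kind can be lost or counted elsewhere. These 14 genes together had 27 counts in FoxOi_Loperamide, 198 in FoxOi, 14 in Loperamide and 32 in DMSO libraries. The pseudogene Ldha-ps2 held 13 of them in FoxOi_Loperamide, 72 in FoxOi, 4 in Loperamide and 17 in DMSO. With these counts added to Ldha, an alternative chosen after the pseudogene counts were seen, the log2 fold change of FoxOi over DMSO was 3.72 and that of FoxOi_Loperamide over FoxOi was -3.26, and none of the Ldha calls changed.

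Ldhb had 11.9, 13.3 and 14.1 CPM in FoxOi_Loperamide libraries, 19.7, 18.6 and 20.2 CPM in FoxOi, 6.62, 7.22 and 6.90 CPM in Loperamide, and 6.58, 5.10 and 5.80 CPM in DMSO. The FoxOi libraries are above the FoxOi_Loperamide libraries, and both are above all Loperamide and DMSO libraries. The lowest Loperamide value, 6.62 CPM, lies just above the highest DMSO value, 6.58 CPM. Ldhb rose with the inhibitor (log2 fold change 1.74 ± 0.12 for FoxOi over DMSO, edgeR adjusted p = 6.21e-08). It was 1.49-fold lower in FoxOi_Loperamide than in FoxOi (-0.58 ± 0.11, edgeR adjusted p = 0.00137). It remained 2.24-fold higher in FoxOi_Loperamide than in DMSO (1.16 ± 0.12, edgeR adjusted p = 2.74e-06), in a comparison where 45.5% of genes were called, 22.3% higher and 23.2% lower. Loperamide alone gave 0.25 ± 0.13 (edgeR adjusted p = 0.172). Of the 50-base stretches of Ldhb, 21.0% also occur in the pseudogene Ldhb-ps, which had 226 counts in FoxOi_Loperamide, 361 in FoxOi, 81 in Loperamide and 96 in DMSO libraries. Adding them to Ldhb changed none of its calls (1.71 for FoxOi over DMSO).

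Because Ldha rose more than Ldhb, the make-up of the lactate dehydrogenase transcripts shifted. In FPKM, Ldha made up 10.96%, 6.38% and 13.6% of the sum of Ldha and Ldhb in FoxOi_Loperamide libraries, 42.4%, 41.2% and 49.4% in FoxOi, 2.83%, 4.83% and 6.69% in Loperamide, and 11.8%, 14.98% and 13.6% in DMSO. FoxOi libraries are above all others and Loperamide libraries are below DMSO, with 3, 7 and 10 Ldha counts behind the Loperamide shares. Other genes share 10.4% of the 50-base stretches of Ldha and 21.0% of those of Ldhb. The shares were not recomputed with the counts of those genes, so their absolute size is uncertain. The mean was 44.3% ± 4.47 in FoxOi against 13.4% ± 1.60 in DMSO (SD, n = 3 each, two-sided exact permutation p = 0.1, the smallest that 3 against 3 can give). The mean in FoxOi_Loperamide was 10.3% ± 3.67 (n = 3, exact permutation p = 0.1 against FoxOi and 0.3 against DMSO). In Loperamide it was 4.78% ± 1.93 (n = 3, exact permutation p = 0.1 against DMSO and 0.2 for FoxOi_Loperamide against Loperamide). With FoxOi against Loperamide (exact permutation p = 0.1) these are 6 comparisons, and this design can take none of them under 0.05. The sum of Ldha and Ldhb was 11.1 ± 1.10 FPKM in FoxOi_Loperamide, 26.7 ± 3.06 in FoxOi, 5.52 ± 0.319 in Loperamide and 5.13 ± 0.514 in DMSO (SD, n = 3 each).

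**Figure D2:**
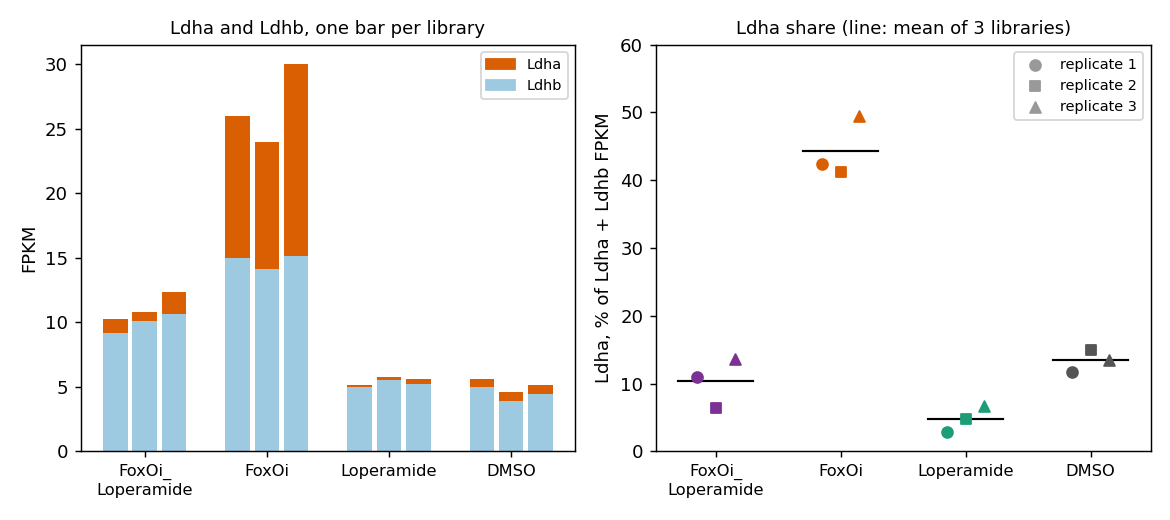
Left, FPKM of Ldhb (lower part) and Ldha (upper part) stacked in 1 bar per library, in FoxOi_Loperamide, FoxOi, Loperamide and DMSO; right, the percentage of Ldha in their sum, with a point per library and a line at the mean of 3. The share is 41.2% or more in FoxOi libraries and at most 14.98% in all others.

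Slc16a1, the MCT1 gene, kept its rise in the presence of loperamide. It had 66.1, 75.8 and 89.8 CPM in FoxOi_Loperamide libraries, 76.5, 85.1 and 105 CPM in FoxOi, 23.2, 22.2 and 27.8 CPM in Loperamide, and 18.9, 19.7 and 27.9 CPM in DMSO. The 2 groups with the inhibitor overlap with each other, as do the 2 without it, and the 6 libraries with the inhibitor all lie above the 6 without. The log2 fold change was 2.01 ± 0.17 for FoxOi over DMSO (edgeR adjusted p = 5.11e-07), 1.80 ± 0.17 for FoxOi_Loperamide over DMSO (1.01e-06) and 1.66 ± 0.17 for FoxOi_Loperamide over Loperamide (4.37e-06, with 38.9% of all genes called, 18.4% higher and 20.5% lower). Loperamide alone gave 0.14 ± 0.17 (edgeR adjusted p = 0.563).

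Replicate 3 had the highest Slc16a1 value in each of the 4 groups. Within replicate numbers, FoxOi_Loperamide over FoxOi gave ratios of 0.864, 0.890 and 0.854. The difference was not called without the replicate block (log2 fold change -0.20 ± 0.16, edgeR adjusted p = 0.377) and was called lower with it (-0.20, edgeR adjusted p = 0.0116). With the block, 7504 genes were called in this comparison, against 4465 without it.

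Slc16a3, the MCT4 gene, had 1.469, 1.50002 and 1.769 CPM in FoxOi_Loperamide libraries, 6.16, 6.37 and 9.79 CPM in FoxOi, 2.14, 2.36 and 1.58 CPM in Loperamide, and 3.71, 4.05 and 2.49 CPM in DMSO. FoxOi libraries are above DMSO, and DMSO libraries are above both groups with loperamide, which overlap. Slc16a3 rose with the inhibitor alone (1.12 ± 0.22, edgeR adjusted p = 0.000941), where the ratio of FoxOi to DMSO was 1.66, 1.57 and 3.92 in replicates 1, 2 and 3. It fell 4.71-fold in FoxOi_Loperamide against FoxOi (-2.24 ± 0.24, edgeR adjusted p = 7.31e-06). It was also called lower in FoxOi_Loperamide than in DMSO (-1.12 ± 0.26, edgeR adjusted p = 0.00284).

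Loperamide alone went with a 1.70-fold lower Slc16a3 level than DMSO (-0.77 ± 0.26, edgeR adjusted p = 0.0385). That call was lost without DMSO replicate 1 (-0.74, edgeR adjusted p = 0.0779), DMSO replicate 2 (-0.64, 0.13), Loperamide replicate 1 (-0.81, 0.0714) or Loperamide replicate 3 (-0.61, 0.152). FoxOi_Loperamide and Loperamide were not called different (-0.35 ± 0.29, edgeR adjusted p = 0.362). None of the 50-base stretches of Slc16a1 and Slc16a3 occurs in another annotated gene.

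The balance of the 2 transporters moved with these changes. The ratio of Slc16a1 to Slc16a3 in FPKM was 45.2, 50.8 and 51.0 in FoxOi_Loperamide libraries, 12.5, 13.4 and 10.8 in FoxOi, 10.9, 9.47 and 17.7 in Loperamide, and 5.13, 4.90 and 11.2 in DMSO. FoxOi_Loperamide libraries stand above all others, and the other 3 groups overlap. Slc16a1 was the more abundant transporter per length in every library.

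FoxOi and Loperamide libraries were also compared directly, where 49.6% of all genes were called, 25.5% higher and 24.1% lower. All 4 genes were higher in FoxOi, Ldha by 5.42 ± 0.32 (edgeR adjusted p = 7.56e-09), Ldhb by 1.49 ± 0.12 (1.65e-07), Slc16a1 by 1.86 ± 0.17 (6.75e-07) and Slc16a3 by 1.88 ± 0.24 (1.73e-05) on the log2 scale.

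**Figure D3:**
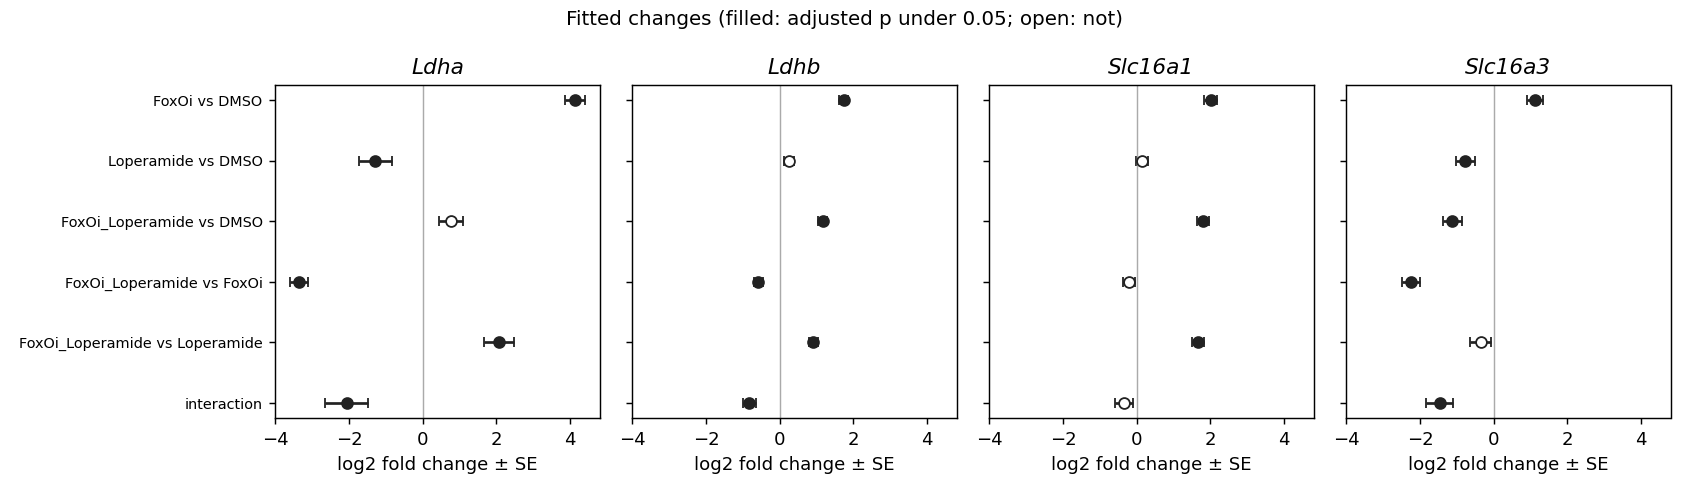
Log2 fold change ± SE of Ldha, Ldhb, Slc16a1 and Slc16a3 in 5 comparisons and the interaction, first group over second; filled points had an adjusted p under 0.05. The inhibitor alone raised all 4, and FoxOi_Loperamide over DMSO ranged between -1.12 for Slc16a3 and 1.80 for Slc16a1.

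Whether the effect of loperamide differed with the inhibitor was tested as an interaction, FoxOi_Loperamide over FoxOi minus Loperamide over DMSO on the log2 scale. It was called lower for 3 of the 4 genes, while 9.48% of all genes were called, 5.82% lower and 3.66% higher. The values were -2.07 ± 0.57 for Ldha (edgeR adjusted p = 0.0341), -1.47 ± 0.37 for Slc16a3 (0.0191) and -0.83 ± 0.17 for Ldhb (0.00673). Slc16a1 was not called (-0.35 ± 0.23, edgeR adjusted p = 0.419), but was called with the replicate block (-0.35, edgeR adjusted p = 0.0151). The Ldha call was lost without DMSO replicate 1 (-2.001, edgeR adjusted p = 0.056), DMSO replicate 2 (-2.03, 0.0685), FoxOi_Loperamide replicate 1 (-2.03, 0.0616), Loperamide replicate 2 (-2.06, 0.0954) or Loperamide replicate 3 (-1.73, 0.197), and the Slc16a3 call without Loperamide replicate 2 (-1.33, 0.0641). The Ldhb call held in every leave-one-out fit, with values between -0.88 and -0.70.

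**Figure D4:**
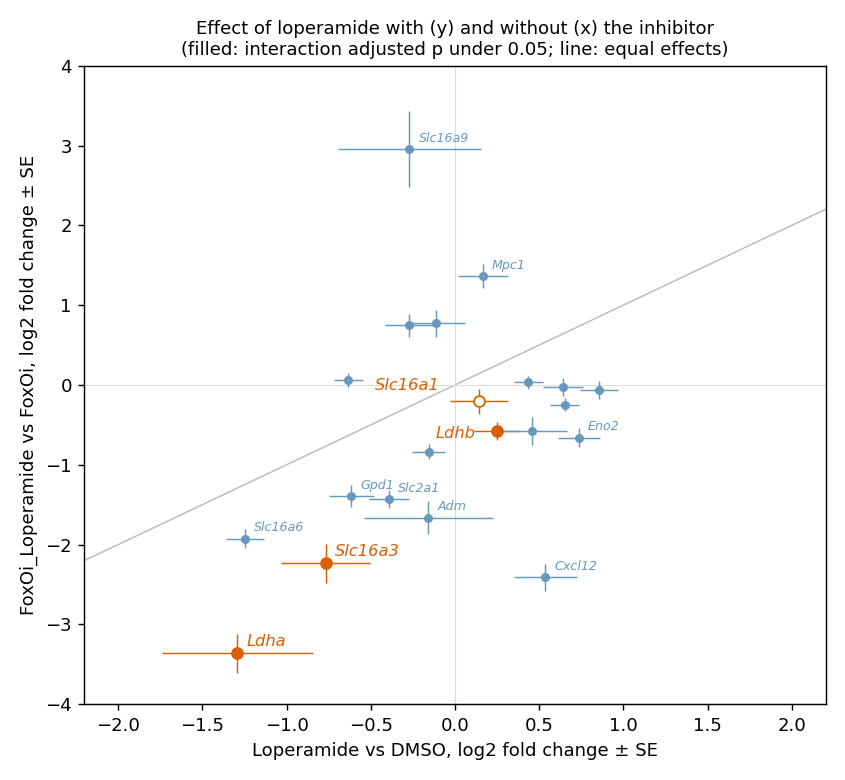
Effect of loperamide with the inhibitor (FoxOi_Loperamide vs FoxOi, vertical) against its effect without it (Loperamide vs DMSO, horizontal), log2 fold change ± SE, for the 4 genes in orange and the other listed genes whose interaction was called in blue; the line marks equal effects. Ldha, at -1.29 and -3.36, and Slc16a3, at -0.77 and -2.24, lie below the line, and the open point is Slc16a1.

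The transporters need a partner protein to reach the membrane, basigin (Bsg) or embigin (Emb), and both partners were lower with the inhibitor alone, where the transporters rose. Of all genes tested, 20.3% were called lower in FoxOi against DMSO and 15.8% in Loperamide against DMSO. The lower share was 15.1% in FoxOi_Loperamide against FoxOi and 23.2% in FoxOi_Loperamide against DMSO. Bsg averaged 717 CPM in FoxOi_Loperamide, 933 in FoxOi, 715 in Loperamide and 1190 in DMSO. It was lower than DMSO in FoxOi (-0.35 ± 0.09, edgeR adjusted p = 0.00736) and in Loperamide (-0.74 ± 0.09, 3.69e-05), and lower in FoxOi_Loperamide than in FoxOi (-0.38 ± 0.09, 0.00725), a comparison in which Slc16a3 also fell. Emb was lower than DMSO in FoxOi_Loperamide (-0.40 ± 0.08, edgeR adjusted p = 0.00134), in FoxOi (-0.32 ± 0.08, 0.00636) and in Loperamide (-0.27 ± 0.08, 0.021). The last of these calls was lost without DMSO replicate 2 or any 1 of the 3 Loperamide libraries, with values of -0.35 to -0.26 over leave-one-out fits. The sodium-coupled lactate carriers Slc5a8 and Slc5a12 averaged at most 0.04 CPM in any group.

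Among 12 other members of the SLC16 family, 6 were tested, and 1 rose and 1 fell with the inhibitor (median log2 fold change 0.10). In that comparison 40.9% of all genes were called. Slc16a10, an aromatic amino acid transporter, rose by 0.90 ± 0.12 (edgeR adjusted p = 2.78e-05), and Slc16a9, the MCT9 gene, was lower with a log2 fold change of -2.35 ± 0.52 (0.00225) at levels of 0.20 CPM in FoxOi against 1.04 CPM in DMSO. Slc16a6, the MCT7 gene, was lower in Loperamide than in DMSO (-1.25 ± 0.11, edgeR adjusted p = 2.09e-06) and lower in FoxOi_Loperamide than in FoxOi (-1.93 ± 0.12, 2.83e-08). The MCT2 gene Slc16a7 averaged at most 0.02 CPM in any group. Ldhd, the mitochondrial D-lactate dehydrogenase, was lower in FoxOi than in DMSO (-0.92 ± 0.13, edgeR adjusted p = 4.48e-05), and the testis subunit Ldhc had 0 CPM in every group.

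Upstream of pyruvate, 10 of 17 tested glycolysis enzymes rose and 3 fell in FoxOi against DMSO (median log2 fold change 0.41). Over all genes, 20.7% were called higher and 20.3% lower. The platelet-type phosphofructokinase Pfkp rose by 1.08 ± 0.08 (edgeR adjusted p = 1.31e-07), the aldolase Aldoa by 0.97 ± 0.10 (2.27e-06), the enolase Eno1 by 0.94 ± 0.09 (1.3e-06) and the phosphoglycerate kinase Pgk1 by 0.82 ± 0.07 (7.59e-07). The glucose transporter Slc2a1 averaged 25.7 CPM in FoxOi_Loperamide, 69.4 in FoxOi, 17.5 in Loperamide and 22.9 in DMSO. Its change was 1.60 ± 0.11 in FoxOi over DMSO (edgeR adjusted p = 8.22e-08) and -1.43 ± 0.11 in FoxOi_Loperamide over FoxOi (3.44e-07).

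In FoxOi_Loperamide against FoxOi, 7 of the 17 glycolysis enzymes fell and 3 rose, with 5 to 6 and 1 to 4 when a library was left out (median log2 fold change 0.00). Over all genes, 15.1% were called lower and 11.5% higher. Aldoa fell by 0.84 ± 0.10 (edgeR adjusted p = 1.56e-05), Pgk1 by 0.70 ± 0.07 (5.7e-06) and Eno1 by 0.67 ± 0.09 (5.59e-05). Pfkp averaged 117 CPM in both groups and was not called. Loperamide alone gave 5 lower and 3 higher, with Pgk1 at -0.65 ± 0.07 (edgeR adjusted p = 1.48e-05) and the aldolase Aldoc at 0.97 ± 0.11 (1.13e-05). Of all genes, 15.8% were called lower and 16.1% higher with loperamide alone. With the replicate block, loperamide alone gave 8 lower and 6 higher, in a fit that called 8179 genes, against 5370 without the block. Gapdh counts among the 10 that rose with the inhibitor, but 58.4% of its 50-base stretches occur in 222 other genes and it averaged at most 8.83 CPM, so its value is uncertain.

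Downstream, of 11 genes of mitochondrial pyruvate entry, 3 rose and 1 fell with the inhibitor (median log2 fold change 0.17), a share near the 40.9% called over all genes. The one that fell was Pcx, pyruvate carboxylase, the main anaplerotic enzyme of beta cells. It averaged 123 CPM in FoxOi_Loperamide, 81.3 in FoxOi, 227 in Loperamide and 190 in DMSO, and its change was -1.22 ± 0.08 in FoxOi over DMSO (edgeR adjusted p = 2.39e-08) and 0.60 ± 0.08 in FoxOi_Loperamide over FoxOi (3.17e-05). Pdha1, a subunit of pyruvate dehydrogenase, rose by 0.63 ± 0.08 with the inhibitor (edgeR adjusted p = 3.43e-05) and did not differ between FoxOi_Loperamide and FoxOi beyond its error (0.01 ± 0.08, 0.922). With the block, 5 of the 11 rose with the inhibitor, and the 40.9% over all genes does not apply to that fit.

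The mitochondrial pyruvate carrier subunit Mpc1 averaged 205 CPM in FoxOi_Loperamide, 79.5 in FoxOi, 64.3 in Loperamide and 57.2 in DMSO. Its change in FoxOi_Loperamide over FoxOi was 1.37 ± 0.15 (edgeR adjusted p = 8.78e-06), opposite in sign to that of Ldha. Its partner Mpc2 was not called in that comparison (-0.23 ± 0.13, edgeR adjusted p = 0.222). Of 3 tested pyruvate dehydrogenase kinases, 1 fell with the inhibitor (Pdk2, -0.78 ± 0.21, edgeR adjusted p = 0.00713), where 20.3% of all genes were called lower.

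Beta cells reoxidise glycolytic NADH mainly through mitochondrial shuttles, which compete with lactate dehydrogenase for it. Of 8 tested shuttle genes, 2 rose and 3 fell with the inhibitor (median log2 fold change -0.06), where 20.7% of all genes were called higher and 20.3% lower. Gpd2, the mitochondrial glycerol phosphate dehydrogenase, averaged 164 CPM in FoxOi_Loperamide, 97.4 in FoxOi, 222 in Loperamide and 268 in DMSO. It fell by 1.46 ± 0.14 in FoxOi against DMSO (edgeR adjusted p = 2.21e-06) and was higher in FoxOi_Loperamide than in FoxOi (0.75 ± 0.14, 0.00129). The cytosolic Gpd1 was lower in FoxOi_Loperamide than in FoxOi (-1.39 ± 0.13, edgeR adjusted p = 2.13e-06). Loperamide alone gave 4 lower and 0 higher, with 3 to 5 lower when a library was left out, with the malate dehydrogenases Mdh1 at -0.63 ± 0.09 (edgeR adjusted p = 6.4e-05) and Mdh2 at -0.47 ± 0.11 (0.00379). Of all genes, 15.8% were called lower and 16.1% higher there.

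**Figure D5:**
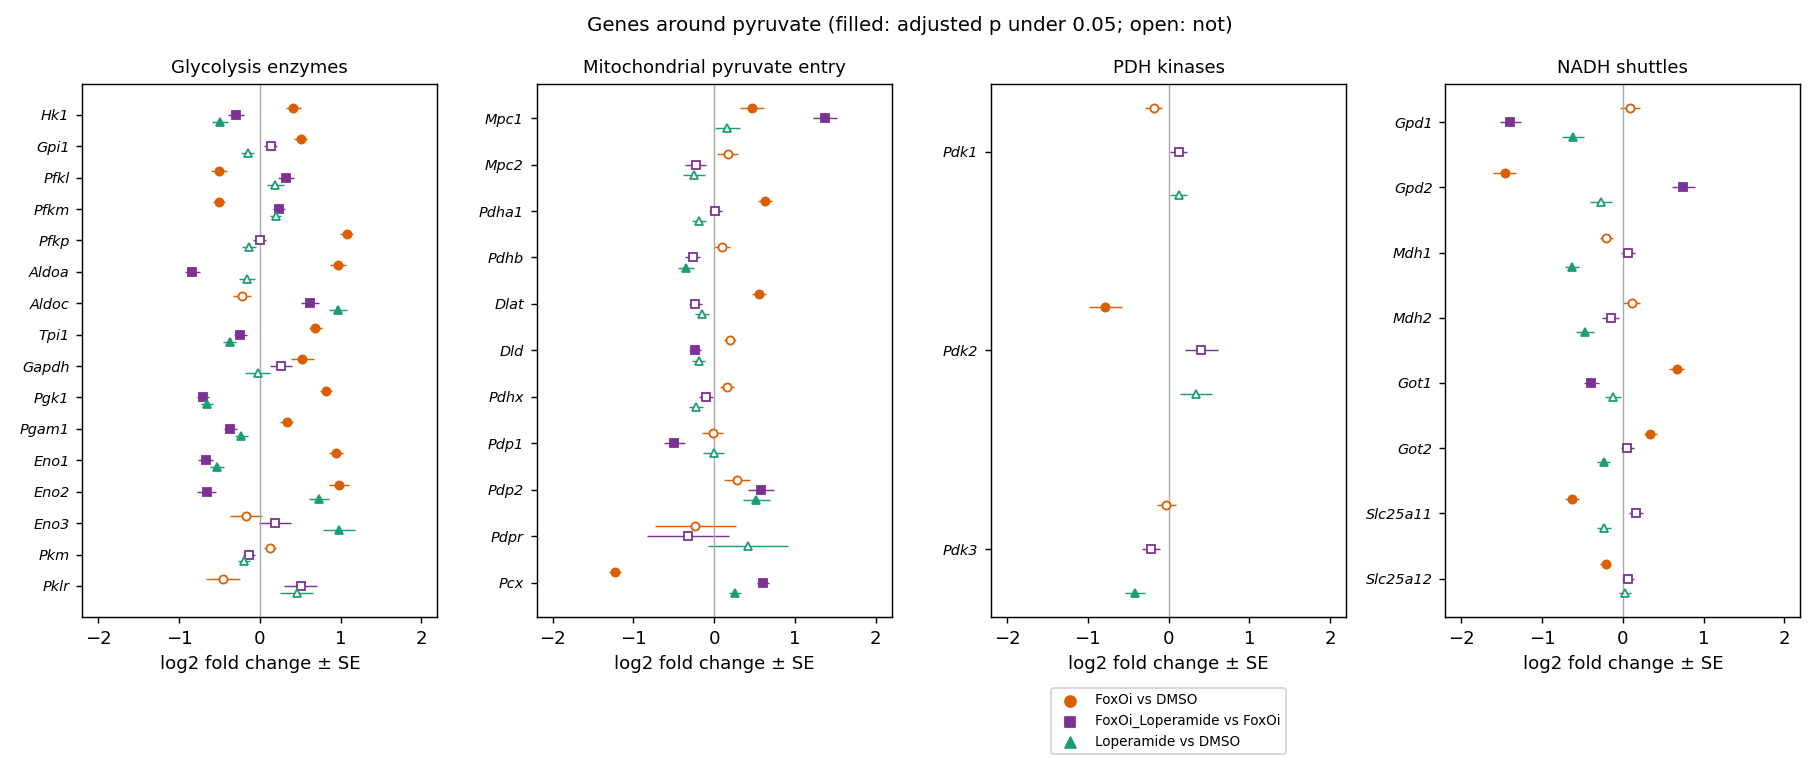
Log2 fold change ± SE of genes around pyruvate in 4 lists, of which 16 of the 17 tested glycolysis enzymes are drawn, for FoxOi vs DMSO (circles), FoxOi_Loperamide vs FoxOi (squares) and Loperamide vs DMSO (triangles); filled points had an adjusted p under 0.05. Pcx (-1.22) and Gpd2 (-1.46) lie left of 0 for FoxOi vs DMSO, where 10 of 17 glycolysis enzymes rose, and Mpc1 (1.37) lies farthest right for FoxOi_Loperamide vs FoxOi.

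Of 19 further disallowed genes, 11 were tested, and 5 rose and 3 fell in FoxOi against DMSO (median log2 fold change 0.13). Over all genes, 20.7% were called higher and 20.3% lower. The chemokine Cxcl12 averaged 16.4 CPM in FoxOi_Loperamide, 87.4 in FoxOi, 13.6 in Loperamide and 9.46 in DMSO, an order in which FoxOi was highest as for Ldha. It rose by 3.21 ± 0.18 in FoxOi over DMSO (edgeR adjusted p = 1.2e-08) and was lower in FoxOi_Loperamide than in FoxOi (-2.41 ± 0.17, 1.56e-07). Catalase, Cat, rose by 2.57 ± 0.37 with the inhibitor (edgeR adjusted p = 6.37e-05) and did not differ between FoxOi_Loperamide and FoxOi beyond its error (0.12 ± 0.27, 0.786). Its levels were low, at 2.38 CPM in FoxOi against 0.394 CPM in DMSO, where it had 18 counts over 3 libraries. In FoxOi_Loperamide against FoxOi, 7 of the 11 fell and 1 rose (median -0.58), with 5 to 7 falling when a library was left out. The shares over all genes were 15.1% lower and 11.5% higher. The thioesterase Acot7 fell by 1.52 ± 0.21 in that comparison (edgeR adjusted p = 9.97e-05), and the ornithine aminotransferase Oat by 0.69 ± 0.08 (2.25e-05).

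Of 10 tested hypoxia-inducible genes outside glycolysis, 6 rose and 0 fell with the inhibitor (median log2 fold change 0.29), with 3 to 6 rising when a library was left out. Over all genes, 20.7% were called higher and 20.3% lower. The peptide hormone adrenomedullin, Adm, averaged 4.22 CPM in FoxOi_Loperamide, 13.3 in FoxOi, 0.84 in Loperamide and 0.93 in DMSO, and rose by 3.81 ± 0.26 in FoxOi over DMSO (edgeR adjusted p = 5.29e-08). Bnip3, a mitophagy receptor, rose to a like extent with the inhibitor (0.63 ± 0.12, edgeR adjusted p = 0.000497) and with loperamide alone (0.64 ± 0.12, 0.000817). Ddit4, a stress-induced inhibitor of mTORC1, averaged 133 CPM in FoxOi_Loperamide, 89.6 in FoxOi, 77.5 in Loperamide and 32.7 in DMSO, and rose with the inhibitor (1.45 ± 0.19, edgeR adjusted p = 5.01e-05) and with loperamide alone (1.24 ± 0.19, 0.000308). Vegfa was not called with the inhibitor (-0.09 ± 0.10, edgeR adjusted p = 0.509). Loperamide alone gave 5 higher and 1 lower, the collagen hydroxylase subunit P4ha1 at -1.08 ± 0.10 (edgeR adjusted p = 1.43e-06). The shares over all genes were 16.1% higher and 15.8% lower.

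Of 10 tested factors known to act on these genes, 3 rose and 2 fell with the inhibitor, a share near the 40.9% called over all genes. Mlxipl, which encodes the glucose-responsive factor ChREBP, averaged 66.4 CPM in FoxOi_Loperamide, 44.2 in FoxOi, 764 in Loperamide and 458 in DMSO, and fell by 3.37 ± 0.21 in FoxOi against DMSO (edgeR adjusted p = 1.31e-07). Myc rose with the inhibitor (0.90 ± 0.18, edgeR adjusted p = 0.00102) and with loperamide alone (0.87 ± 0.18, 0.00213). The nuclear receptor Esrra rose with the inhibitor (0.95 ± 0.10, edgeR adjusted p = 3.34e-06) and rose further in FoxOi_Loperamide over FoxOi (0.42 ± 0.10, 0.00449). The coactivator gene Ppargc1a rose with the inhibitor (2.76 ± 0.55, edgeR adjusted p = 0.000979), at low levels of 1.08 CPM in FoxOi against 0.149 CPM in DMSO. Hif1a was not called with the inhibitor (0.45 ± 0.28, edgeR adjusted p = 0.229). These are transcript levels, and the activity of the factors was not measured.

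The genes most like each of the 4 were found by Pearson's r of log2 CPM over the 12 libraries among 12369 genes, as a description, since the libraries fall into 4 groups that every gene shares. Ldha was most like Serpina3n, a secreted protease inhibitor (r = 0.988), which averaged 2.28 CPM in FoxOi_Loperamide, 22.8 in FoxOi, 0.782 in Loperamide and 1.82 in DMSO. Next came the collagen lysyl hydroxylase Plod2 (r = 0.984), Ccn4 (0.978) and Nrip3 (0.977). Ldhb was most like the carboxypeptidase Scpep1 (r = 0.990), followed by Retreg1, Atad3a, Gpr137b-ps and Fam129a. Slc16a1 was most like Gabrq, a GABA receptor subunit (r = 0.993), followed by Zfp36l2, Fem1b, Mex3b and Nabp1. Slc16a3 was most like Sash1 (r = 0.963), followed by Dhx34, Phospho1, Myof and Cdipt.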

How the data were processed

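Counts per gene, whole numbers not normalized, and FPKM values were deposited by the authors, with 1 column per library. Per the submitters' processing notes, STAR 2.7.5a, Picard 2.19.2 and DESeq2 were used with GRCm38 (mm10). For the counting step, tool and strand setting were not given in the sources used here, so overlapping genes on opposite strands may share reads. FPKM as deposited equals counts divided by gene length and a library factor within 0.226% of DESeq2 size factors (10321 genes).

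edgeR 4.0.16 under R 4.3.3 was run on the counts (filterByExpr by group, minimum count 10, total 15; TMM; robust quasi-likelihood fit of group over all 12 libraries). A call means an adjusted p (Benjamini-Hochberg, all 16808 genes) below 0.05. Standard errors were derived as the size of the log2 fold change over the root of the F statistic. Alternatives used DESeq2 1.42.0, limma 3.58.1 on log2(FPKM + 1) and log2(FPKM + 0.1), other scalings, no filter, the compared groups alone, a replicate block and leaving out each library. Tested on simulated data for FoxOi against DMSO, the fit found 32 of 67 simulated 1.5-fold changes, 52 of 67 at 2-fold and 59 of 66 at 4-fold, and called 13 of 16268 unchanged genes. For the interaction it found 7 of 67, 41 of 67 and 56 of 66, and called 8 of 16252 unchanged genes. The simulation drew libraries independently and changed far fewer genes than were called in these data. These rates therefore need not hold for the data.

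Within groups, pairs of libraries had a chi-square per degree of freedom of 5.34 or more, so none was a copy. Same-numbered libraries deviated together, with correlations of 0.0915 to 0.507, against -0.469 to 0.105 for different numbers. All 3 pairs exceeded 0.1 in every comparison of 2 groups except FoxOi_Loperamide against Loperamide, so the numbers were taken to pair the samples in those. Same-numbered libraries also share a code in their column names, whose meaning is not stated. The main fit nevertheless uses group only, so its p-values and calls leave this pairing out. Fits with the replicate number as a block are given as alternatives.

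The 4 genes and all lists were chosen with earlier results of these data known. The text names the 4 genes, up to 4 genes per list with the smallest adjusted p in FoxOi against DMSO, Loperamide against DMSO, FoxOi_Loperamide against FoxOi or the interaction, the 5 genes most like each, and markers used to check the label; the other genes named (Mpc2, Vegfa, Hif1a, Gapdh and genes at or near 0) were added after their values were seen. Not every gene that the rule covers is described, and some are not reported here. Promoter sequences are from RefSeq (GRCm38.p6), where all 4 genes were matched by symbol; GENCODE M21 transcripts gave the shared 50-base stretches.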

Additional observations from a re-analysis of the deposited data

Results flagged for a closer look

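The effect of loperamide differed with and without the inhibitor, by the interaction term of the edgeR fit, for 3 of the 4 genes. With the replicate block, the edgeR fit called it for all 4 (Slc16a1 -0.35, adjusted p 0.0151). That fit called 4334 genes in the interaction, against 1594 without the block. Ldha had an interaction of -2.07, with loperamide effects of -3.36 with and -1.29 without the inhibitor. Ldhb had -0.83 (-0.58 with and 0.25 without), and Slc16a3 had -1.47 (-2.24 with and -0.77 without). All are log2 values, and the libraries on which the Ldha and Slc16a3 calls depend are named above.

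Among the other named genes, 17 were also called in the interaction. Genes were named partly because of this call, so their number says nothing about how common it is. Over all genes tested, 9.48% were called. Values above 0, where loperamide had a higher log2 effect with the inhibitor than without, were 3.23 for Slc16a9, 1.204 for Mpc1, 1.02 for Gpd2, 0.88 for Smad3 and 0.70 for Mdh1. Values below 0 were -2.95 for Cxcl12, -1.50 for Adm, -1.40 for Eno2, -1.04 for Slc2a1, -1.03 for Lmo4, -0.92 for Gpt2, -0.90 for Ndrg1, -0.78 for Gpd1, -0.68 for Aldoa, -0.68 for Slc16a6, -0.67 for Bnip3 and -0.40 for Egln1. Some of these calls depend on single libraries. Adm was called only in the fit without FoxOi replicate 2 among 12 leave-one-out fits, and Egln1 in those without FoxOi replicate 3 or FoxOi_Loperamide replicate 1. Lmo4 was lost without DMSO replicate 2, DMSO replicate 3, FoxOi replicate 1, FoxOi replicate 2, Loperamide replicate 3, FoxOi_Loperamide replicate 2 or FoxOi_Loperamide replicate 3 (values of all 12 fits -1.17 to -0.86). Smad3 was lost without FoxOi replicate 1, FoxOi replicate 2, Loperamide replicate 1, Loperamide replicate 2, Loperamide replicate 3, FoxOi_Loperamide replicate 2 or FoxOi_Loperamide replicate 3 (0.81 to 1.07). Bnip3 was lost without DMSO replicate 2, FoxOi replicate 1 or Loperamide replicate 1 (values of all 12 fits -0.74 to -0.56), and Gpd1 and Slc16a6 without DMSO replicate 2 (largest adjusted p 0.0633 and 0.0721). The other 10 were called in all 12 fits.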

How the results depend on the processing

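Over 28 results on the 4 genes, 626 alternative values were computed, of which 598 kept direction and side of the threshold, 21 lost the call, 7 gained one and 0 reversed. Ldha in Loperamide against DMSO was not called by limma on log2(FPKM + 1) (-0.414, adjusted p 0.0773, or 0.186 unfiltered) and ranged between -1.62 and -1.04 over leave-one-out fits. Slc16a3 in that comparison was not called with total-count scaling (-0.673, 0.0606) or by limma on log2(FPKM + 1) (-0.277, 0.0782, or 0.175 unfiltered) and ranged between -0.962 and -0.607. Ldha in FoxOi_Loperamide against DMSO was called with total counts (0.926, 0.0246), without a filter (0.782, 0.0103), by DESeq2 (0.767, 0.0427) and with the replicate block (0.743, 0.00933), and ranged between 0.415 and 1.03. The Ldha interaction ranged between -2.42 and -1.73. The Slc16a3 interaction ranged between -1.63 and -1.22 and was not called by limma on unfiltered log2(FPKM + 1) (-0.679, 0.0545). The cause of these differences was not tested.

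The replicate block also gave a call for Slc16a1 in FoxOi_Loperamide against FoxOi (-0.202, adjusted p 0.0116). For the interaction, where 1 of the pairs did not exceed 0.1, it gave a call for Slc16a1 (-0.346, 0.0151) and raised the genes called to 4334, against 1594 without it. Genes called rose to 8179 for Loperamide against DMSO, against 5370, and to 7504 for FoxOi_Loperamide against FoxOi, against 4465. It changed no other call of the 4 genes. Among 392 results on other named genes it gained 48 calls and lost 0. For the Ldha share the block gave an exact p of 0.25 for FoxOi against DMSO, the smallest that 3 pairs allow.

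Total-count scaling moved the median log2 fold change of all genes to 0.115 for FoxOi against DMSO, 0.118 for Loperamide against DMSO and 0.165 for FoxOi_Loperamide against DMSO. It raised the higher share of called genes to 63.3%, 66.1% and 66.3%, against 50.5%, 50.5% and 49.1% with TMM, and to 54.3%, against 43.1%, for FoxOi_Loperamide against FoxOi. A fit of the compared groups alone was not made for the interaction, which needs all 4. Depth limits Ldha most, with 20 counts over the 3 Loperamide libraries.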
